A study of Mus musculus with 2 samples.

Results

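The genes that define a neuron as using glutamate or GABA were compared between RNA from a synaptosome fraction and RNA from total homogenate of mouse brain. They were chosen by name: the vesicular glutamate transporters Slc17a7, Slc17a6 and Slc17a8, the vesicular GABA transporter Slc32a1, and the glutamate decarboxylases Gad1 and Gad2. All 6 were found among the 23329 genes of the deposited files, each as 1 RefSeq transcript, so no alternative transcripts could be compared. The synaptosome fraction came from wild-type C57BL/6 animals, with tissue given as whole brain, and was the band between the lighter and denser steps of a Percoll gradient run on a supernatant freed of nuclei. The total homogenate had the same strain, genotype and tissue labels and had not been fractionated. Age, sex and the number of animals behind each library were not found in the labels used here. Both titles carry the marks WT1 and CT10, whose meaning the labels used here do not explain. A synaptosome is a pinched-off nerve ending, often with a piece of postsynaptic membrane attached.

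Glutamate is the main excitatory transmitter of the brain and GABA the main inhibitory one. A nerve terminal releases them only after a transporter has loaded them into synaptic vesicles, with energy from a proton pump in the vesicle membrane. Slc17a7 encodes VGLUT1, which prevails in cortical, hippocampal and cerebellar granule neurons, and Slc17a6 encodes VGLUT2, which prevails in thalamus and brainstem. Slc17a8 encodes VGLUT3, found in scattered neurons that often use another transmitter as well, among them serotonin and cholinergic cells. Slc32a1 encodes VGAT, which loads both GABA and glycine. Gad1 and Gad2 encode GAD67 and GAD65, the enzymes that make GABA from glutamate. GAD67 is spread through the cytosol and GAD65 is tethered to vesicle membranes, while all of the transporters are proteins that span the membrane many times. Gad1, Gad2 and Slc32a1 are made by the same neurons.

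The results turn on telling relatives apart, so for Slc17a7 with Slc17a6, the more abundant VGLUT genes, and for Gad1 with Gad2 the most alike 60 coding bases are shown, with capitals at the bases that differ. The sequences are from GENCODE M21 transcripts matched to the files' RefSeq identifiers, on GRCm38, the assembly also called mm10, and all lie on the plus strand.
Slc17a7: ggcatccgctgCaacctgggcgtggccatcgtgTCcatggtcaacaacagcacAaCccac
Slc17a6: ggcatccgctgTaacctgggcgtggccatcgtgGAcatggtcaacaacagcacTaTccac
Gad1: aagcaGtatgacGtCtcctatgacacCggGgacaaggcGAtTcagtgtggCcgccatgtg
Gad2: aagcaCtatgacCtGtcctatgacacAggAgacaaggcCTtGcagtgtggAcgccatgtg
The Slc17a7 and Slc17a6 stretches share 55 of 60 bases and lie in exon 2 of each gene, at chr7:45168884-45168943 and chr7:51625450-51625509. The Gad1 and Gad2 stretches share 51 of 60 bases and lie in exon 14 of Gad1, at chr2:70594678-70594737, and exon 13 of Gad2, at chr2:22681342-22681401.

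Over the whole coding region the pairs were less alike. Identity was 72.0% for Slc17a7 with Slc17a6, 71.1% for Slc17a7 with Slc17a8, 71.7% for Slc17a6 with Slc17a8 and 67.1% for Gad1 with Gad2. The longest run without a difference between any of these pairs of transcripts was 25 bases, between Slc17a6 and Slc17a8, whereas reads were 100 bases long per the labels. No stretch of 100 bases in Slc17a7, Slc17a6, Slc17a8 or Gad2 occurs in an annotated transcript of another gene, and 8 of 3256 in Gad1 occur in the pseudogene Gad1-ps, which is not a gene in the files. Slc32a1 is the exception on the opposite strand: the antisense gene Gm14205 covers 697 bases of its exons. The library kit kept the strand, per the labels, but the strand setting used in counting was not known here, so antisense reads within the Slc32a1 count cannot be told apart.

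The 6 genes lie on 3 chromosomes. On mm10, Slc32a1 (chr2:158610758-158615747) has 2 exons, Gad1 (chr2:70562164-70602012) has 17 and Gad2 (chr2:22622327-22693877) has 16. Slc17a7 (chr7:45163921-45176139), Slc17a6 (chr7:51621830-51671126) and Slc17a8 (chr10:89574020-89621249) have 12 exons each. Both enzyme genes thus have more exons than any of the transporters. The annotated 3′ untranslated region is 1218 bases in Gad1 and 3528 in Gad2, against 744 in Slc32a1, 1098 in Slc17a7, 1759 in Slc17a6 and 2296 in Slc17a8. The GC content of the coding region is 50.3% in Gad1 and 49.2% in Gad2, which falls among the transporters' 48.9% to 61.4%.

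There was 1 library per fraction, with 13709528 estimated counts for the synaptosome fraction and 15210838 for the homogenate. No value has a replicate, so nothing here is a test of fractions in general. Each ratio compares these libraries only, and its 95% interval (exact Clopper-Pearson) covers counting error alone. Ratios are synaptosome over homogenate after TMM scaling, which sets the typical gene near a ratio of 1 among 14153 genes whose mean reached 1 CPM. A gene was called higher or lower when the ratio was at least 2-fold and the interval excluded 1. By that rule 12.7% of all genes were higher in the synaptosome fraction and 9.22% were lower, that is 1793 and 1305 genes. Counts called in the gene lists below are to be read beside these shares. Scaled by library totals these were 632 higher and 3625 lower, and by TPM 565 and 3913. In a fraction of bulk tissue, fewer particles of one kind and less RNA in each cannot be told apart. Of markers of brain regions, Gabra6, a receptor subunit that defines mature cerebellar granule cells, had 0 counts in both libraries, which allows up to 0.219 CPM in the synaptosome fraction and 0.197 CPM in the homogenate.

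The transporters and the enzymes lay on opposite sides of the typical gene. All 4 transporter mRNAs had ratios above 1, from 1.55 to 2.34, and both enzyme mRNAs were more than 2-fold lower in the synaptosome fraction. By the rule of size 1 of 4 transporters was higher and 0 lower, and 2 of 2 enzymes were lower. Over all genes 12.7% were higher and 9.22% lower. The median log2 ratio was 0.85 for the transporters and -1.23 for the enzymes, against -0.02 for all genes tested.

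Slc32a1, the GABA and glycine loader, had 2031 counts in the synaptosome fraction and 1353 in the homogenate, or 126 and 78.0 TPM. Its ratio was 2.34 (2.18 to 2.50), the only one of the 6 called higher. That call ended when the libraries were scaled by their total counts, where the ratio was 1.67.

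Slc17a7, the cortical glutamate loader and by far the most abundant of the genes, had 20764 counts in the synaptosome fraction and 16972 in the homogenate, or 1226 and 932 TPM. Its ratio of 1.90 (1.87 to 1.94) was just short of the rule. Slc17a6, the thalamic and brainstem loader, had nearly equal counts, 1499 in the synaptosome fraction and 1501 in the homogenate, which TMM scaling turned into a ratio of 1.55 (1.45 to 1.67). The rarest was Slc17a8, with 60 counts in the synaptosome fraction and 55 in the homogenate and a ratio of 1.70 (1.16 to 2.49). With library totals the ratios were 1.36 for Slc17a7, 1.11 for Slc17a6 and 1.21 for Slc17a8, and the interval of Slc17a8 (0.825 to 1.78) then held 1.

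Gad1, the cytosolic enzyme, had 1939 counts in the synaptosome fraction and 7140 in the homogenate, or 104 and 356 TPM. It was 2.37-fold lower in the synaptosome fraction (2.25 to 2.49). Gad2, the vesicle-tethered enzyme, had 1104 counts in the synaptosome fraction and 4023 in the homogenate, or 33.5 and 114 TPM, and was 2.34-fold lower (2.19 to 2.50). The enzymes thus had almost the same ratio. Whether the location of their proteins bears on it was not tested. Both were lower under every scaling tried, with log2 ratios of -1.73 and -1.72 under library totals.

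**Figure D1:**
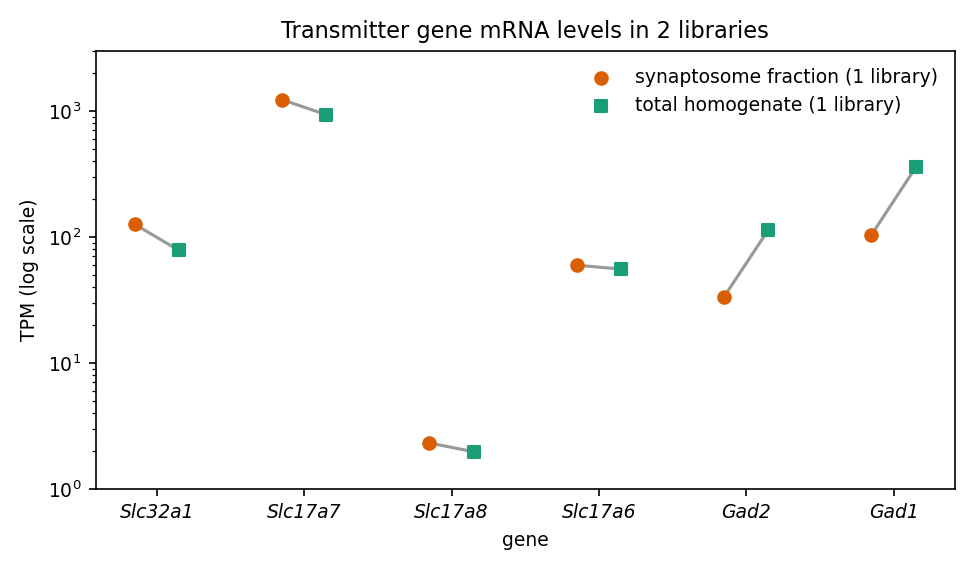
Level of each gene in TPM on a log axis, with the synaptosome library (circle) left of the homogenate library (square); each point is 1 library, so there are no error bars. The lines slope down to the right for the 4 transporters (Slc32a1 126 and 78.0 TPM) and up for both enzymes (Gad1 104 and 356 TPM).

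Within each library the levels, compared per length as TPM, followed different orders. In the synaptosome fraction the order was Slc17a7 (1226 TPM), Slc32a1 (126), Gad1 (104), Slc17a6 (59.6), Gad2 (33.5) and Slc17a8 (2.31). In the homogenate it was Slc17a7 (932 TPM), Gad1 (356), Gad2 (114), Slc32a1 (78.0), Slc17a6 (55.5) and Slc17a8 (1.97). Slc32a1 therefore stood above both enzymes in the synaptosome fraction and below both in the homogenate, while the order among the glutamate transporters was the same in both.

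Ratios between genes of one library need no scaling, so they show the split most directly. The 4 transporters together had 24354 counts against 3043 for the enzymes in the synaptosome fraction, a ratio of 8.00, and 19881 against 11163 in the homogenate, a ratio of 1.78. The first is 4.49 times the second (exact conditional interval 4.30 to 4.70, counting error only). Without Slc17a7, which supplies most of the counts, the value was 4.53 (4.25 to 4.83). For the GABA genes, which share cells although glycine cells also make Slc32a1, the bulk counts gave the same split. Slc32a1 had 1.05 counts per Gad1 count in the synaptosome fraction and 0.189 in the homogenate, a 5.53-fold difference (5.07 to 6.02). Against Gad2 the difference for Slc32a1 was 5.47-fold (4.96 to 6.03).

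All 8 pairs of a transporter with an enzyme had intervals that excluded 1, the smallest being Slc17a6 with Gad2 at 3.64-fold (3.30 to 4.02). These pairs share genes and restate the members' ratios, so their tally is not independent support. Within the enzymes there was no such shift. Gad2 had 0.569 counts per Gad1 count in the synaptosome fraction and 0.563 in the homogenate, a 1.01-fold difference with an interval of 0.929 to 1.10. By TPM, Gad1 made up 75.6% of the enzyme mRNA in the synaptosome fraction and 75.8% in the homogenate.

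**Figure D2:**
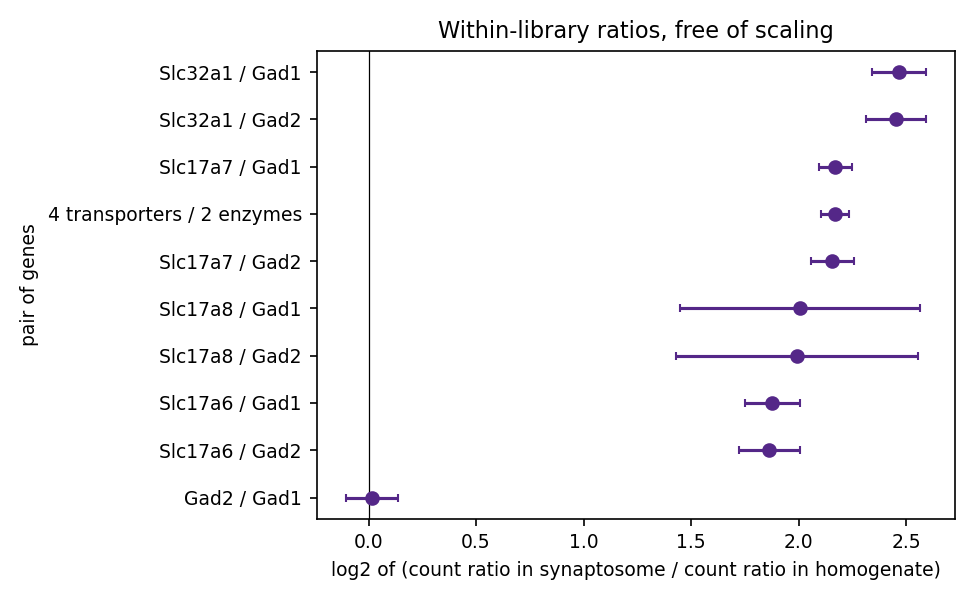
For each pair named on the left, the count ratio of the first to the second gene in the synaptosome fraction over that in the homogenate, on a log2 axis, with exact 95% counting intervals. Every transporter over enzyme pair lies at 1.86 or more, up to 2.47 for Slc32a1 over Gad1, while Gad2 over Gad1 lies at 0.02.

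Among the transporters the shifts were small beside that split. The VGLUT mRNAs had similar proportions in both libraries: by TPM, Slc17a7 made up 95.2% of the sum in the synaptosome fraction and 94.2% in the homogenate, Slc17a6 4.63% and 5.61%, and Slc17a8 0.179% and 0.199%. The count of Slc17a7 per Slc17a6 count was 13.9 in the synaptosome fraction and 11.3 in the homogenate, a 1.23-fold difference (1.14 to 1.32). For Slc32a1 over Slc17a7 the difference was also 1.23-fold (1.14 to 1.32). The largest among the transporters was Slc32a1 over Slc17a6, at 1.503-fold (1.36 to 1.66). Slc17a8 could not be placed, since its pairs with Slc17a7 (0.763 to 1.65 for Slc17a7 over Slc17a8), Slc17a6 (0.739 to 1.62 for Slc17a8 over Slc17a6) and Slc32a1 (0.930 to 2.03 for Slc32a1 over Slc17a8) all had intervals that held 1. In order of ratio the neighbours that differed beyond counting error were thus Slc32a1 above Slc17a7, and Slc17a6 above Gad2.

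The ratio tended to be higher for abundant genes, which bears on where each member stands. In the most abundant decile of genes, which holds Slc17a7, Gad1 and Gad2, the median log2 ratio was 0.58, with 33.2% of genes called higher and 3.95% lower. Slc17a7, with a log2 ratio of 0.93, lay at percentile 63.1 of that decile. Gad1 at -1.24 and Gad2 at -1.23 lay at percentiles 2.12 and 2.40 of it. The next decile, with Slc32a1 and Slc17a6, had a median of 0.19, and these genes lay at percentiles 90.2 and 69.7 in it. Slc17a8, with few reads, lay at percentile 85.5 of a decile with a median of -0.20. Set among all genes, the enzymes were at percentiles 5.56 and 5.74 and Slc32a1 at 91.9.

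**Figure D3:**
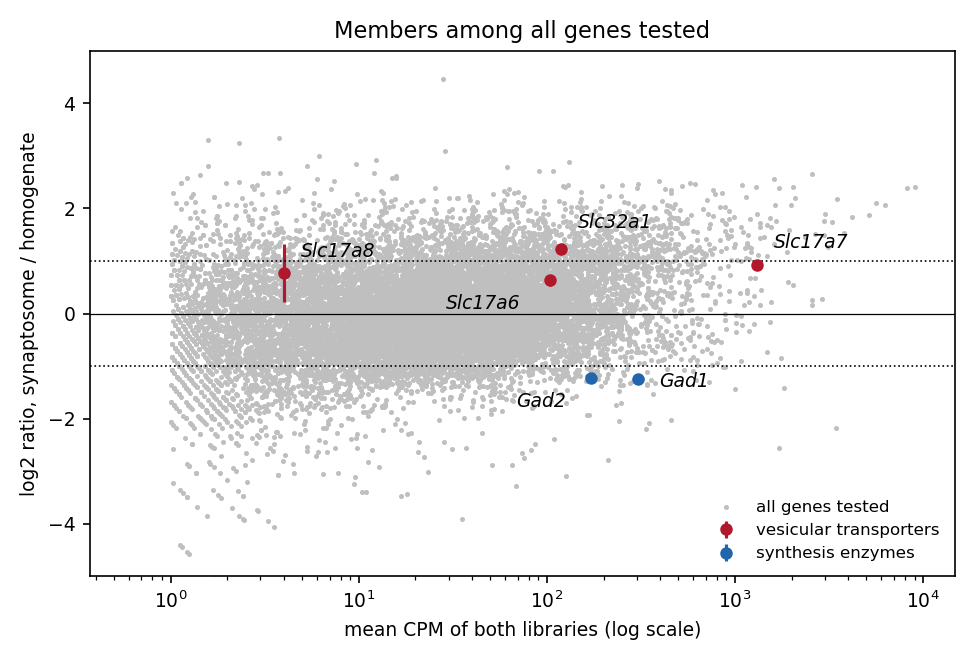
Log2 ratio of synaptosome over homogenate against mean CPM on a log axis for all genes tested (grey, leaving out 8 with 0 counts in 1 library), with the transporters in red and the enzymes in blue; bars are 95% counting intervals, widest for Slc17a8, and dotted lines mark 2-fold. Gad1 and Gad2 lie low among genes of their abundance (percentiles 2.12 and 2.40), and Slc32a1 lies above the upper dotted line.

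Genes that supply glutamate went both ways. Of 11 measured, 3 were higher and 2 lower. Their median log2 ratio was 0.24, or -0.25 under library totals. Those called higher were Glul at 4.55-fold (4.49 to 4.62), the glutamine synthetase of astrocytes, the mitochondrial glutamate carrier Slc25a18 at 5.34-fold, and Glud1, glutamate dehydrogenase, at 3.33-fold. Those called lower included the aspartate aminotransferase Got1, with 1698 counts in the synaptosome fraction and 6576 in the homogenate (2.49-fold lower, 2.36 to 2.63). Gls2, a glutaminase, had a ratio of 0.813, and Got2, the mitochondrial aminotransferase, one of 0.562. Slc38a1 and Slc38a2, glutamine transporters of the plasma membrane, had ratios of 1.67 and 1.18, and Slc38a3, which releases glutamine from astrocytes, had 1.46. Slc25a22, another mitochondrial glutamate carrier, had 0.661.

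Uptake genes were mostly higher. Among glutamate uptake genes 3 of 4 measured were higher and 0 lower (median 1.49). These were the astrocyte transporters Slc1a2 and Slc1a3 at 4.32-fold and 3.12-fold, and the neuronal transporter Slc1a1 at 2.51-fold (2.38 to 2.65). Slc1a6, another glutamate transporter, had a log2 ratio of 0.58. Of 5 measured genes of GABA uptake and breakdown 4 were higher and 0 lower (median 1.34). Among them Slc6a11, the astrocyte GABA transporter, was 3.30-fold higher (3.19 to 3.42). Abat, the transaminase that degrades GABA, was 3.26-fold higher (3.17 to 3.36) and Aldh5a1, which acts after it, 2.53-fold higher. Abat mRNA thus stood at 14099 counts in the synaptosome fraction and 6723 in the homogenate, the opposite of the enzymes that make GABA. Slc6a13, a GABA transporter of the meninges, had a ratio of 0.772. Slc6a12 and Slc1a7 were below the filter.

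Astrocyte marker mRNAs, which share Slc1a2 and Slc1a3 with the uptake list, were higher in the same library. Their median was 1.88, 8 of 10 being higher and 0 lower. Their summed level was 15928 CPM in the synaptosome fraction and 5329 CPM in the homogenate, and no marker was at 0. Slc1a2 and Aldoc, a glycolytic enzyme of astrocytes, were the most abundant, Gfap, the astrocyte filament, the highest at 5.52-fold, and Gja1, a gap junction protein, the lowest at 1.76-fold. The part of astrocyte RNA in the uptake, Glul and Abat values was not tested.

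The other vesicular and Slc17 transporters lay between the limits. Of 11 genes 5 could be measured, none of which was called in either direction (median log2 ratio 0.58). Slc30a3, which loads zinc into glutamate vesicles, had 1338 counts in the synaptosome fraction and 1308 in the homogenate and a ratio of 1.59 (1.47 to 1.72). Slc17a5, the lysosomal sialic acid carrier sialin, had a ratio of 1.57, Slc18b1 one of 1.35, and Slc18a3, the acetylcholine loader, one of 0.862 (0.537 to 1.36). The monoamine loader Slc18a2 had 176 counts in the synaptosome fraction and 183 in the homogenate, a log2 ratio of 0.58. Slc18a1 and Slc17a9 were below the filter. Slc17a1, Slc17a2, Slc17a3 and Slc17a4, whose proteins serve kidney and gut, had 0 counts in both libraries.

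The proton pump that drives loading had genes on both sides of the typical gene. Its 17 subunit and accessory genes had a median of -0.20, 2 being higher and 2 lower. That is 11.8% each way, near the 12.7% and 9.22% of all genes. Those higher were the membrane-bound accessory proteins Atp6ap2 (2.33-fold) and Atp6ap1 (2.24-fold), and Atp6v0a1, the large membrane subunit, had a ratio of 1.92. Those lower were Atp6v1d (2.12-fold) and Atp6v1g2 (2.08-fold), both of the cytosolic sector. Divided by sector, a split made with the values in view, 5 of 6 V0 genes (the membrane sector) had log2 ratios above 0, the exception being Atp6v0d1 at -0.41, with a median of 0.24. In the V1 or cytosolic sector 1 of 9 did, with a median of -0.82. Under library totals the V0 count was 1 of 6, with a median of -0.25, and the V1 count 0 of 9, with a median of -1.30. Genes linked to GAD itself lay nearer the typical gene, with 0 of 6 higher and 0 lower and a median of -0.01. Among them Hspa8, a chaperone, had a ratio of 0.557, Dnajc5, the vesicle co-chaperone, 0.944, and Pdxk, which acts in making the GAD cofactor pyridoxal phosphate, 1.33.

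**Figure D4:**
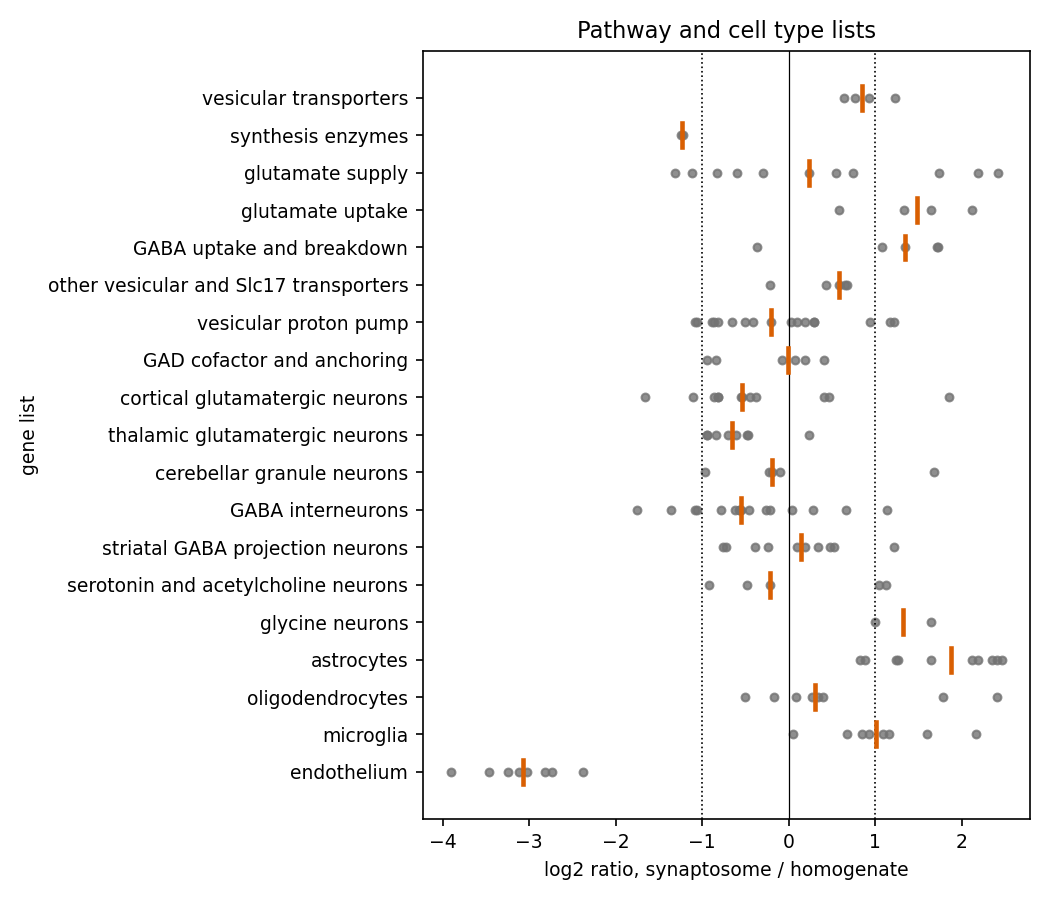
Log2 ratio of synaptosome over homogenate for each measured gene (grey points) of the 19 lists, with list medians as orange bars and dotted lines at 2-fold. The transporters (median 0.85) and the enzymes (median -1.23) do not overlap, GABA interneuron genes center at -0.55 and endothelial genes at -3.07.

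Both marker lists of GABA neurons had medians below the transporters' 0.85. For GABA interneurons, 1 of 16 was higher and 4 were lower (median -0.55). That is 6.25% and 25.0%, against 12.7% and 9.22% of all genes. Their summed level was 354 CPM in the synaptosome fraction and 603 CPM in the homogenate. The receptor Kit was the one higher, with a log2 ratio of 1.14. The transcription factor Dlx5 had 15 counts in the synaptosome fraction and 79 in the homogenate and was 3.38-fold lower. The calcium-binding proteins Calb2 and Pvalb were 2.57-fold and 2.12-fold lower and Dlx6 2.08-fold lower, while the peptides Sst and Npy had ratios of 0.837 and 0.727. Striatal projection neurons, which use GABA too, included 1 of 10 higher, or 10.0%, and 0 lower (median 0.14, and -0.35 with library totals). Of these the enkephalin precursor Penk was 2.33-fold higher, while the signalling protein Ppp1r1b had a ratio of 0.845 and Rgs9 one of 0.592. Slc32a1 thus lay above, and Gad1 and Gad2 below, the medians of both lists.

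The medians of glutamatergic marker lists lay below the ratios of all 3 VGLUT genes. Among cortical markers 1 of 12 was higher and 2 were lower (median -0.54). That is 8.33% and 16.7%, against 12.7% and 9.22% of all genes. Camk2a, a kinase, was 3.60-fold higher, and Nrgn, a spine protein, had a ratio of 0.689. The transcription factor Neurod6 was 3.16-fold lower (2.76 to 3.63), and Neurod2 was 2.15-fold lower. Among 8 thalamic markers none was called in either direction, and the median was -0.66, from 0.23 for the adhesion protein Ntng1 to -0.95 for Lef1 and Gbx2, with the kinase Prkcd at -0.71. Of the cerebellar granule cell list 5 of 8 could be measured, all genes that other cells make too. The 3 below the filter were Gabra6, at 0 in both libraries, Cbln3, with 6 counts in each, and Fat2, with 8 in each. The measured ones had 1 higher and 0 lower and a median of -0.20: Pax6 was 3.21-fold higher, Zic1 and Cbln1 had ratios of 0.872 and 0.930, and Neurod1 had 0.510.

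The cells that use VGLUT3 or share VGAT were hard to read. The 5 measured serotonin and acetylcholine genes had a median of -0.21, 2 being higher and 0 lower. The choline transporter Slc5a7 was 2.17-fold higher (1.72 to 2.76) and the serotonin transporter Slc6a4 2.06-fold, whereas the synthesis enzymes Tph2, for serotonin, and Chat, for acetylcholine, had ratios of 0.718 and 0.529. For acetylcholine, the loader Slc18a3 had 1.82 counts per Chat count in the synaptosome fraction and 1.12 in the homogenate, a 1.63-fold difference whose interval (0.764 to 3.53) held 1. That pair was chosen after its values were seen. Of the glycine genes, Slc6a5, which defines glycine terminals, had 2 counts in the synaptosome fraction and 5 in the homogenate. Among the 2 that could be measured 1 was higher, the receptor subunit Glra1 at 3.11-fold (1.54 to 6.60), and Slc6a9, the glial glycine transporter, had a ratio of 1.99.

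Markers of other cell types lay on both sides of the typical gene. Oligodendrocyte markers had 2 of 8 higher and 0 lower and a median of 0.31 (-0.18 under library totals), with Mbp, the myelin basic protein, at 5.29-fold and Cldn11 at a ratio of 0.702. Microglial markers had 4 of 8 higher and 0 lower and a median of 1.01, with the adaptor Tyrobp at 4.48-fold, Csf1r at 1.80, Cx3cr1 at 1.59 and P2ry12 at 1.03. Endothelial markers had 8 of 8 lower and a median of -3.07, with Slco1a4, a transporter of the blood-brain barrier, 15.0-fold lower, the growth factor receptor Flt1 6.67-fold lower and Esam, an adhesion protein, 5.18-fold lower. Summed levels in the synaptosome fraction and the homogenate were 19329 and 8723 CPM for oligodendrocytes, 357 and 264 CPM for microglia and 17.4 and 220.3 CPM for endothelium, with no marker at 0. Their part in the members' values was not tested.

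Genes with the ratio nearest to each member's were chosen for that nearness. Among genes whose mean CPM was within 1.5-fold of the member's, the nearest in log2 ratio to Slc17a7 (0.93) were Dlg4, the postsynaptic scaffold PSD-95, at 0.91 and Hpcal4, a calcium-binding protein, at 1.00, out of 82 candidates. Nearest to Gad1 (-1.24) were Pcp4, a calmodulin-binding protein, at -1.24 and the imprinted gene Peg3 at -1.23, and nearest to Gad2 (-1.23) were Peg3 and the zinc finger gene Zfp445 at -1.24. For Slc32a1 they were Mbd3 and Tprkb, for Slc17a6 the calcium channel gene Cacna1g and the kinase Cdk19, and for Slc17a8 Angptl4 and Paox. With 1 library per fraction this likeness rests on a single ratio per gene.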

How the data were processed

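The authors deposited, for each library, an expected count and a TPM for each of 30383 transcripts. The deposited expected counts are estimates that need not be whole. The authors' TPM values correct for transcript length and have the same sum in both libraries. They also deposited a signal per gene, which equalled the summed count times 1.25 for synaptosomes and 0.798 for homogenate. RSEM 1.2.5, TopHat 1.3.3, edgeR 3.0.6 and FastQC are named, with mm10, per the submitters' processing notes; roles, settings and order were not known here.

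Here expected counts were summed per gene symbol and rounded. TMM factors from edgeR 4.0.16 (R 4.3.3), over genes whose mean reached 1 CPM, were 0.844 for the synaptosome fraction and 1.18 for the homogenate. Intervals of single ratios are exact Clopper-Pearson at 95%. Ratios of ratios have exact conditional intervals. Both leave out the error of assigning reads, and PCR copies are not independent. No test was possible with 1 library per fraction. Calculations used Python 3.11.15, numpy 2.4.6, scipy 1.17.1, pandas 2.3.3 and biopython 1.88, and were tested on simulated data.

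The members and the 19 gene lists were chosen with earlier results of these data known. Named were all members, the genes of the 4 lists on supply, uptake and transport, the 2 most abundant and the highest and lowest gene of the other lists, and for each member the 2 genes nearest in ratio, leaving out predicted genes, clone names, small RNAs and pseudogenes. A few genes that enter the counts and medians are not reported here by name. Atp6v1g2 and Atp6v0d1, and Slc6a5, Gabra6, Cbln3, Fat2, Slc6a4, Neurod2, Calb2, Pvalb, Dlx6, Syp, Sv2a, Otof, Abcc8, Ica1 and the synapsins, were named after their values were seen. The same holds for Rph3a, Dtnbp1, Vamp2 and Stx1a. Slc18b1 is listed in the files under an older symbol, 1110021L09Rik. Alternatives were library totals, size factors by DESeq2 1.42.0, TPM, the deposited signal, other filters, another fold limit and unrounded counts.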

Additional observations from a re-analysis of the deposited data

How the results depend on the processing

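Each member kept its direction in all 41 recalculations, and 30 of these values stayed within the counting interval. All reused the same libraries, so the tally is not independent support. Unrounded counts and other filters could change a ratio only slightly, and the deposited signal is the count times a constant. No paired analysis was possible because there is 1 library per fraction. Nor could a library be left out. Library totals moved every log2 ratio by -0.49, giving 0.74 for Slc32a1, 0.44 for Slc17a7, 0.15 for Slc17a6, -1.73 for Gad1 and -1.72 for Gad2. TPM gave 0.69, 0.40, 0.10, -1.78 and -1.76 for the same genes. Scaling over genes with at least 5 CPM gave 0.89 for Slc17a7. Slc17a8, with a mean of 4.00 CPM, was not among those genes, and its counts scaled that way gave 0.72. The count of members called higher, 1, became 0 under library totals and 0 with TPM, and 4 at a 1.5-fold limit, while 2 were lower throughout. Over all genes, 1793 higher and 1305 lower became 632 and 3625 with library totals, 565 and 3913 with TPM, and 3370 and 2989 at 1.5-fold. The log2 difference between transporters and enzymes, 2.17, was 2.18 with TPM and without Slc17a7, and 2.08 as a difference of medians. List medians changed sign under library totals for 3 of 19 lists, those of glutamate supply, striatal neurons and oligodendrocytes, and, in a comparison added after seeing the data, for the V0 pump sector. Depth limits Slc17a8 most, with 60 and 55 counts, and the design limits everything, since no spread between animals or preparations can be estimated.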

Other observations

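By the gene annotation in the authors' deposited table, all 4 transporters are integral to membrane and neither enzyme is. Over all genes, 3007 tested genes with that annotation had a median log2 ratio of 0.47, which was -0.02 under library totals, with 20.0% higher and 4.96% lower. The other 11146 had a median of -0.15, which was -0.63 under library totals, with 10.7% higher and 10.4% lower. The split was chosen after the members' values were seen.

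Slc17a7, Slc17a8 and Gad2 are also among 27 genes annotated there to the synaptic vesicle membrane. Slc17a6 and Slc32a1 are not, although their proteins load vesicles. The labels are thus incomplete, and the groups below follow them without a check against the proteins. Of the 27 genes, 17 are labelled integral to membrane, and 13 of the 17 had log2 ratios above 0. Their median was 0.67, with 2 higher and 1 lower, Otof at a ratio of 0.481. The highest was Syp, a vesicle protein, at 2.73-fold (2.69 to 2.77), followed by Sv2a, another, at 2.16-fold. The 10 not annotated as integral to membrane had a median of -0.44, and 3 of them had log2 ratios above 0. By the rule 1 was higher and 3 were lower, or 10.0% and 30.0%. The one higher was Abcc8, at 2.26-fold. Gad2 was among those lower, with Ica1 at a ratio of 0.414 (0.360 to 0.474). Synapsins, which coat vesicles from the cytosol, had ratios of 0.511 for Syn1, 0.685 for Syn2 and 0.797 for Syn3. Rph3a and Dtnbp1, also among the 10, went the other way, with ratios of 1.54 and 1.57. Among the 17, Vamp2 and Stx1a had ratios of 0.858 and 0.909. These counts describe a pair of libraries, and no test of the difference was possible.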
